A study of Mus musculus with 2 samples.

Results

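Neurofilaments and their relatives are built by a small gene family, and 5 of its genes are described here in the embryonic mouse telencephalon: Ina, which encodes alpha-internexin, Nefl, Nefm and Nefh, which encode the light, medium and heavy neurofilament chains, and Prph, which encodes peripherin. The genes were chosen by their symbols. All 5 were found, among 28001 features of a library from septal explants and among 32286 features of a library from the whole telencephalic vesicle. No measured value entered that rule, though earlier results of these data were known when the genes were chosen.

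Neurofilaments are intermediate filaments of the axon. Nefl assembles with the other chains, the long tails of Nefm and Nefh are phosphorylated and space the filaments apart, and Ina is the chain that central neurons are known to make early in their differentiation, before the light, medium and heavy chains build up. Peripherin is best known from peripheral neurons and from central neurons whose axons leave the brain or spinal cord. Cycling progenitors build their filaments from vimentin and nestin instead.

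Each library was a single pool of dissociated cells in which every captured transcript carries a unique molecular identifier (UMI). The septal pool held tissue from 8 PGKCre;Rosa26YFP embryos at E11.5, in which Cre is driven by a ubiquitous promoter, and from 4 Dbx1Cre;Rosa26tdTomato embryos at E12.5, in which Cre follows Dbx1, each stage from 2 litters. The vesicle pool held 3 wild-type embryos from 2 litters, labelled E12 in the deposit and aged between E11.5 and E12 per the methods. The deposited labels give the genotype of both as wild-type and the strain as C57BL/6J. With 1 library of each kind there are no replicates, so no test was made: every interval below is an exact 95% interval that covers counting error only, and the libraries, made with different kits and counted with different software, were each read on their own.

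The septal library held 5827 barcodes with a median of 12722 UMIs and the vesicle library 14283 barcodes with a median of 8503, with 1 barcode sequence in common. After cells with much mitochondrial RNA and called doublets were removed, 5384 and 11707 cells were kept. They were clustered without the 5 genes and without 12 other intermediate filament genes. Apical progenitors (APs) numbered 3087 septal and 6851 vesicle cells, differentiating cells 593 and 1229, and neurons 1263 and 1675.

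In the mouse genome (GRCm38, GENCODE vM21 models) Nefl and Nefm are neighbours on chromosome 14. Nefl lies at chr14:68083863-68089095 on the plus strand, with 4 exons and 3380 exonic bases. Nefm lies on the minus strand, and its 3-exon transcript spans chr14:68119283-68124846, with 30187 bases between it and Nefl. A longer Nefm transcript reaches chr14:68082590 and so runs across Nefl on the opposite strand. Both kits read the strand of the transcript, but how reads in such an overlap were assigned is not given in the sources used here. Ina lies at chr19:47014698-47025327 on the plus strand (3 exons), Nefh at chr11:4938754-4948064 on the minus strand (4 exons) and Prph at chr15:99055174-99058978 on the plus strand (8 exons in the transcript model used).

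The 250 bases before the RefSeq start (GRCm38.p6) are shown for Ina and Prph, the 2 of the 5 genes with an entry. Capitals mark CAGCTG in Ina and TATAAA in Prph. The windows are chr19:47014431-47014680 and chr15:99054924-99055173, both on the plus strand.
Ina: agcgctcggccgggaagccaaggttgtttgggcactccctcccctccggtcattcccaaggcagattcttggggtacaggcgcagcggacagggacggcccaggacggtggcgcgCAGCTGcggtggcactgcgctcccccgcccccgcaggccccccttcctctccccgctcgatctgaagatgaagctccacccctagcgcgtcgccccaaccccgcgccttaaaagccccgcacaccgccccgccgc
Prph: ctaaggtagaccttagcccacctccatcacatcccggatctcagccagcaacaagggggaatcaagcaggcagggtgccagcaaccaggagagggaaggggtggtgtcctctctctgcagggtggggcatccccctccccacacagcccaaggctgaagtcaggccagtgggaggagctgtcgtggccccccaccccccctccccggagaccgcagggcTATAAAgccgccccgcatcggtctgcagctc
The Ina window was 70.8% G or C with 25 CG dinucleotides, and the Prph window 65.2% with 7. The medians over 32536 windows of the same length were 52.4% and 6. Of the motifs searched on both strands, Ina held CAGCTG, a sequence read by proneural basic helix-loop-helix factors, with its first base 135 bases before the start. It is found in 13.1% of all windows. Prph held the TATA box sequence TATAAA with its first base 31 bases before the start, as do 12.3% of all windows somewhere in their length. Neither window held CAGATG (14.4% of all windows) or TTCAGCACC (0.301%), the core of the element read by the repressor REST.

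The members with enough UMIs to compare were higher in neurons than in APs. Levels are given as CPM, the UMIs of a gene per 1000000 UMIs of the pooled cells, and a ratio of levels counted as higher at 4-fold or more. A minimum of 50 UMIs over both groups was set. Of the members that met it, 4 of 4 in the septal explants (Ina, Nefl, Nefm and Prph) and 3 of 3 in the vesicle (Ina, Nefl and Nefm) were higher. Prph met the minimum only through 1 neuron, which held 36 of its 55 UMIs in septal neurons. Over all genes that met it, 7.18% of 12696 were higher and 6.85% lower in septal neurons, and 6.96% of 15950 were higher and 7.91% lower in vesicle neurons. Without the minimum of 50 UMIs the higher shares were 12.6% and 12.4%.

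Ina showed the widest rise. Septal Ina went from 8.55 CPM in APs (7.75 to 9.42) to 941 CPM in neurons (925 to 956), a ratio of 110.0 (99.7 to 122). That ratio ranked 27 among the 12696 genes compared. In the vesicle it went from 4.67 CPM (4.31 to 5.05) to 823 CPM (807 to 838), a ratio of 176 (163 to 191) that ranked 11 of 15950. Nefl followed. Its septal level was 2.497 CPM in APs (2.07 to 2.99) and 58.6 CPM in neurons (54.8 to 62.6), a ratio of 23.5 (19.4 to 28.6). Its vesicle levels were 1.76 CPM (1.54 to 1.995) and 48.9 CPM (45.2 to 52.8), a ratio of 27.8 (23.9 to 32.4). Nefm had the narrowest ratio of the 3. It had 7.20 and 83.2 CPM in the septal explants, a ratio of 11.6 (10.3 to 13.1), and 8.82 and 96.1 CPM in the vesicle, a ratio of 10.9 (10.1 to 11.8).

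The levels in APs were set beside cells that should lack these genes, which were blood and macrophage cells and, in the vesicle, endothelial cells. In the 70 such septal cells (median 19923.5 UMIs) Ina had 12.46 CPM (7.50 to 19.5), Nefm 6.56 CPM (3.14 to 12.1) and Nefl 1.97 CPM (0.406 to 5.75), so the mean levels of Ina, Nefm and Nefl in septal APs did not stand above them. In the 492 such vesicle cells (median 6034.5 UMIs) Ina had 7.05 CPM (4.89 to 9.86), above its level in APs. Nefm had 1.66 CPM there (0.717 to 3.27), below its 8.82 CPM in APs (8.32 to 9.33). Nefl had 0.830 CPM (0.226 to 2.13), an interval that includes the level in APs. The septal reference is not a level common to all cells, since the Aldoc/Dct cluster of septal APs had 1.04 CPM of Nefm (0.338 to 2.43), below the reference interval.

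Detection per cell was highest for Ina and lowest for Nefl. Ina had a UMI in 74.8% of septal neurons and 73.3% of vesicle neurons, Nefm in 40.0% and 35.0%, and Nefl in 21.8% and 20.1%. At a median of 14017 UMIs, above the neurons' 11054, septal APs had a UMI of Ina in 10.4%, of Nefm in 9.30% and of Nefl in 3.56%. The septal reference cells had one in 7.14%, 8.57% and 4.29%. With every septal cell thinned to 8000 UMIs (133 neurons and 175 APs were shallower and left out), the shares of neurons were 74.3% for Ina, 33.1% for Nefm and 17.6% for Nefl, against 5.84%, 5.53% and 1.75% of APs. With vesicle cells thinned to 3500 UMIs (35 neurons and 102 APs left out), they were 67.9%, 22.3% and 11.2% of neurons against 1.36%, 3.29% and 0.563% of APs. The vesicle shares of Nefl and Nefm thus fell by over 1.5 times with depth, and that of Ina by less.

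Relative to its own highest level, Nefm stood above Ina and Nefl in bins 7 and 8 of 10 along differentiation. Neural cells were ordered by a score of 11 neuronal genes over 9 AP genes, none of them a member, and cut into 10 bins of equal size. In septal bin 5, still among APs, Nefm stood at 8.17% of its highest level, Nefl at 5.71% and Ina at 0.866%. There the interval of each gene overlapped that of the septal reference cells. The reference level is a larger share of the highest level for Nefm than for Nefl or Ina. The part of this floor in the early lead of Nefm was not tested. In bin 7 Nefm had 11.8%, Nefl 2.37% and Ina 1.91%. In bin 8 the values were 28.7%, 9.84% and 17.7%. In bin 9 they lay together, at 57.2%, 54.8% and 55.5%, and all were highest in bin 10 (Nefm 119 CPM, Nefl 89.0 CPM, Ina 1357 CPM). Nefm was also ahead in the vesicle, where it stood at 10.9%, 19.3% and 46.3% of its highest level in bins 7, 8 and 9. Nefl stood at 3.21%, 5.17% and 28.1%, and Ina at 0.719%, 4.07% and 34.3%. In bin 8 Ina thus stood above Nefl in the septal explants and below it in the vesicle. Vim fell along the same order. It stood at 77.1%, 58.8% and 57.6% of its highest level in septal bins 7, 8 and 9, and at 85.6%, 71.4% and 46.0% in those of the vesicle. Between septal bins 8 and 9, where Nefl, Nefm and Ina rose, Vim thus changed little.

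**Figure D1:**
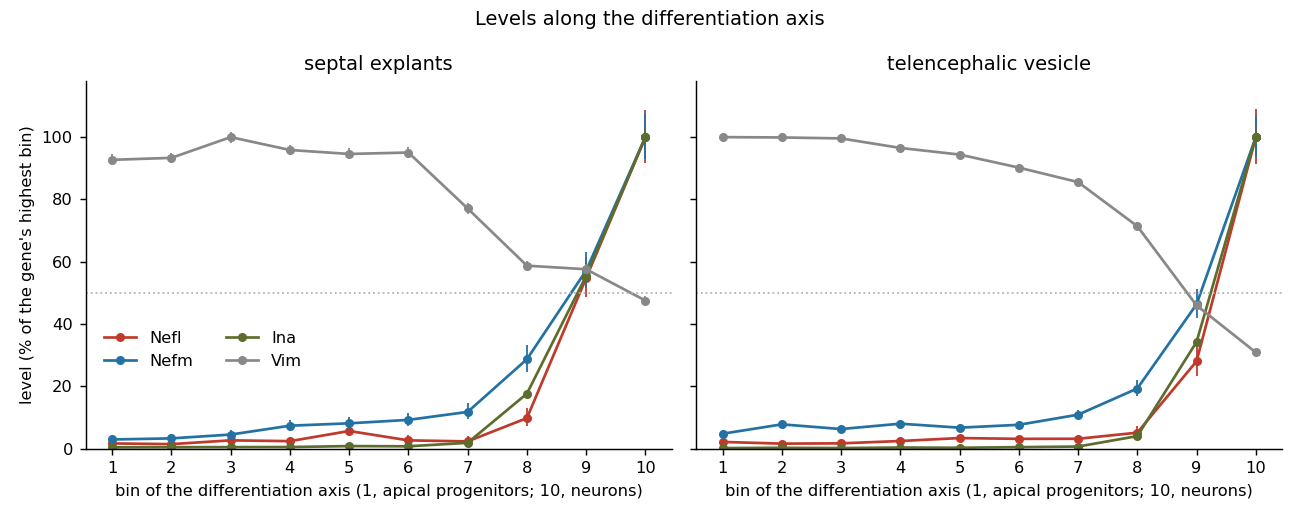
Levels of Nefl, Nefm, Ina and Vim in 10 bins of neural cells ordered from apical progenitors (bin 1) to neurons (bin 10), as a percentage of each gene's highest bin, with exact 95% Poisson intervals as vertical lines. In both libraries Nefm lies above Nefl and Ina in bins 7 and 8 (11.8% against 2.37% and 1.91% in septal bin 7), while Vim falls.

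By cell group, Nefm and Ina were above their AP levels in differentiating cells, and Nefl was not. In these cells Nefm had 20.5 CPM in the septal explants (17.4 to 24.0) and 23.9 CPM in the vesicle (21.2 to 26.9). Nefl had 2.27 CPM (1.32 to 3.63) and 1.38 CPM (0.790 to 2.24) in the same cells, no more than in APs. Ina had 29.3 CPM (25.6 to 33.5) and 25.6 CPM (22.8 to 28.7), a larger step from its AP levels than that of Nefm. The lead of Nefm thus holds only relative to each gene's highest level. Over all neural cells, Nefl, Nefm and Ina first passed 50% of their highest level in the same bin. This was bin 9 in the septal explants and bin 10 in the vesicle, so that measure gave no order. When cells were split into a subpallial lineage (subpallial-like APs, differentiating subpallial cells and clusters with GABAergic markers, Mgat4c/Tac1 among them) and a pallial lineage (pallial-like and ventral pallium (VP)-like APs, basal progenitor (BP)-like cells and pallial glutamatergic-like neurons), Nefm first passed 50% of its highest level in bin 9 in each lineage of each library. Nefl passed it in bin 10 in the septal subpallial and pallial lineages and in the vesicle subpallial lineage, and in bin 9 in the vesicle pallial lineage. The septal lineages left out the clusters highest in Nefl, Shox2/Onecut2 and Gng8/Ppp2r2c (described below). The highest septal bins of Nefl there held 34 UMIs (subpallial, 20.8 CPM) and 31 UMIs (pallial, 22.7 CPM), so its septal places rest on few counts. Ina passed it in bin 10 in both subpallial lineages and in bin 9 in both pallial ones.

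Among APs, Nefm differed by region. Subpallial-like APs had 11.6 CPM in the septal explants (9.94 to 13.4, 1015 cells) and pallial-like and VP-like APs 2.48 CPM (1.55 to 3.75, 572 cells), a ratio of 4.68 (3.00 to 7.66). In the vesicle they had 13.4 CPM (12.3 to 14.7, 2298 cells) and 5.01 CPM (4.33 to 5.77, 1606 cells), a ratio of 2.68 (2.26 to 3.19). Ratios of at least 2 were reached by 5.22% of the 10876 genes compared in septal APs and 4.85% of the 14200 compared in vesicle APs. Of the 3 members with 50 UMIs in each library, Nefm and Nefl reached 2 in the septal explants and Nefm did in the vesicle. Nefl had a septal ratio of 2.35 (1.32 to 4.46) from 61 and 15 UMIs, and a vesicle ratio of 1.03 (0.733 to 1.45). Ina had 1.496 (1.10 to 2.06) and 0.615 (0.491 to 0.768). The septal Nefm ratio was 8.37 at a finer clustering. Thinned to equal depth, 8.76% of septal subpallial-like APs and 2.39% of the pallial-like and VP-like APs had a Nefm UMI, and 4.398% and 1.66% in the vesicle.

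Nefm ran in order across the AP clusters, which are named here by leading genes. Among septal APs the Nkx2-1/Wnt1 cluster (19.6 CPM, 13.5 to 27.6) and the Nkx2-1/Trh cluster (17.4 CPM) were highest, with overlapping intervals. Nkx2-1 is the transcription factor of the ventral subpallium. The VP-like Aldoc/Dct cluster was lowest (1.04 CPM, 0.338 to 2.43), next to the hem-like Rspo2/Wnt3a cluster (1.47 CPM, 0.401 to 3.77). Septal-like APs, marked by Fgf17 and Fgf8, had 9.70 CPM (7.89 to 11.8), close to the subpallial-like ones. In the vesicle the subpallial-like Tal2/Sfta3-ps cluster was highest (17.4 CPM, 15.5 to 19.5) and the pallial-like Fzd9/Dct cluster lowest (3.84 CPM, 2.66 to 5.36). Mesenchyme-like cells of the vesicle, which are no neural cells, had 11.9 CPM (9.47 to 14.8), so a level of this size was not limited to neural progenitors.

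**Figure D2:**
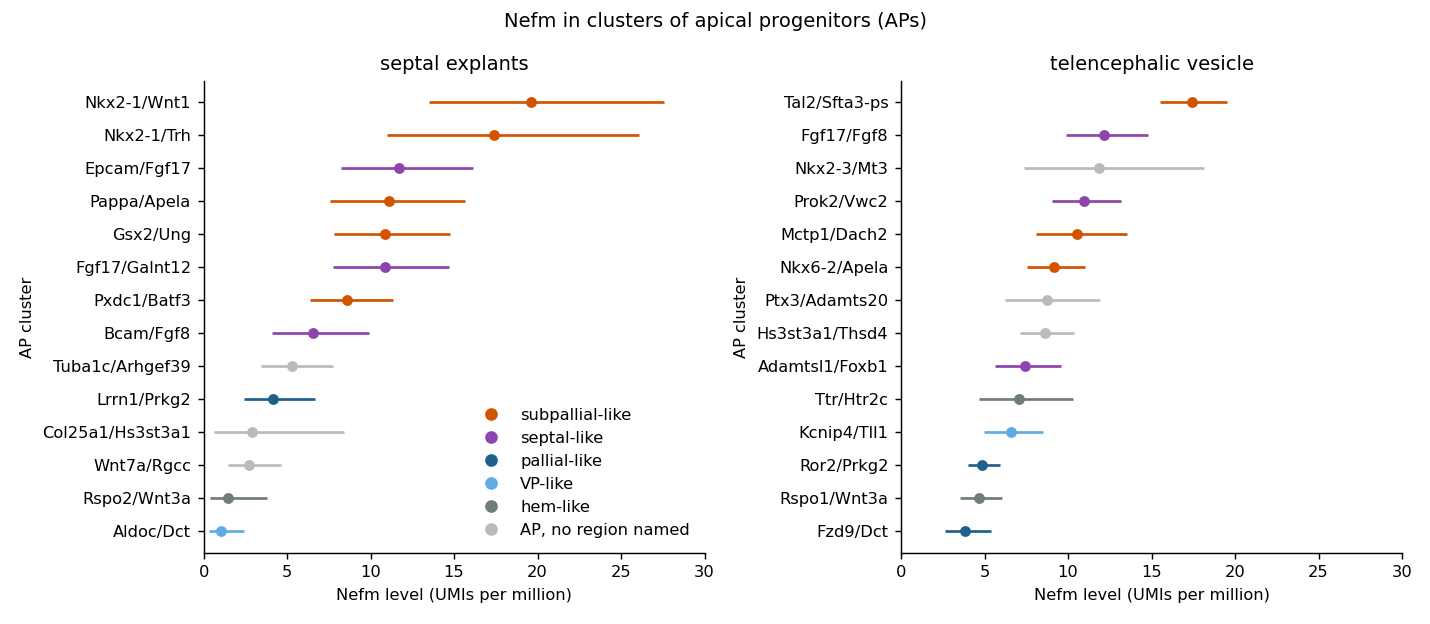
Nefm level in CPM in each cluster of apical progenitors, ordered by level, with exact 95% Poisson intervals; colours give the region named from markers. Subpallial-like and septal-like clusters lie above pallial-like, VP-like and hem-like ones in the septal explants, from 19.6 down to 1.04 CPM, and the vesicle runs from 17.4 down to 3.84 CPM.

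Nefl differed widely between neuron clusters. Septal levels of Nefl ran from 148 CPM in the Shox2/Onecut2 cluster (134 to 164, 276 cells) and 147 CPM in the Gng8/Ppp2r2c cluster (129 to 168, 114 cells) down to 6.24 CPM in the Ccno/Shisa8 cluster (1.70 to 16.0, 55 cells). The leading pair of clusters did not differ in Nefl beyond their intervals. Next came the Tfap2e/Calb2 cluster (35.1 CPM), the pallial glutamatergic-like Neurod6/Pcp4 cluster (30.1 CPM), the GABAergic-like Gad1/Slc32a1 cluster (17.8 CPM), the Sncg/Fam183b cluster (17.8 CPM) and the Gjd2/Barhl2 cluster (7.04 CPM). From Tfap2e/Calb2 down, the interval of each cluster overlapped that of the next, and that of Ccno/Shisa8, from 4 UMIs, also overlapped those of Gad1/Slc32a1 and Sncg/Fam183b, so the order among the lower clusters is not resolved.

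Nefm and Ina had another order. Nefm was highest in the Gng8/Ppp2r2c cluster (194 CPM, 172 to 217), then in Shox2/Onecut2 (112 CPM) and Tfap2e/Calb2 (84.0 CPM), and lowest in Ccno/Shisa8 (3.12 CPM, from 2 UMIs). Ina was highest in Gng8/Ppp2r2c (1519 CPM) and Tfap2e/Calb2 (1414 CPM), followed by Sncg/Fam183b (1072 CPM), Gad1/Slc32a1 (805 CPM), Shox2/Onecut2 (762 CPM), Neurod6/Pcp4 (424 CPM), Gjd2/Barhl2 (299 CPM) and Ccno/Shisa8 (85.8 CPM). The Sncg/Fam183b cluster thus stood high for Ina and low for Nefl and Nefm, and the Shox2/Onecut2 cluster high for Nefl and Nefm but lower in order for Ina. The clusters also differed in differentiation score. Septal neurons were cut by score into 3 groups of equal size. The earliest held 151 of 276 Shox2/Onecut2 and 35 of 55 Ccno/Shisa8 cells, but 27 of 262 Tfap2e/Calb2 cells. The levels above were not matched for score.

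In the vesicle, Nefl was highest in the Mgat4c/Tac1 cluster (138 CPM, 115 to 165, 83 cells), followed by Lhx1/Fam189a1 (93.8 CPM, 80.7 to 108, 230 cells), the pallial glutamatergic-like Dscaml1/Nxph1 cluster (51.6 CPM, 641 cells), the MGE-type GABAergic-like Lhx8/Lhx6 cluster (23.8 CPM, 240 cells), the GABAergic-like Sp9/Gad1 cluster (16.0 CPM, 352 cells) and Ccno/Cdc20b (0.808 CPM, from 1 UMI in 129 cells). The intervals of Lhx8/Lhx6 and Sp9/Gad1 overlapped. Nefm was alike in Lhx1/Fam189a1 (169 CPM) and Mgat4c/Tac1 (163 CPM), and ran through Dscaml1/Nxph1 (111 CPM), Sp9/Gad1 (58.6 CPM) and Lhx8/Lhx6 (47.6 CPM) to Ccno/Cdc20b (10.5 CPM). Ina followed with 1519, 1196, 1056, 622, 312 and 58.2 CPM in the Mgat4c/Tac1, Lhx1/Fam189a1, Dscaml1/Nxph1, Lhx8/Lhx6, Sp9/Gad1 and Ccno/Cdc20b clusters. Ccno, Mcidas and Foxj1, which lead the clusters lowest in Ina in both libraries, are known as genes of multiciliated cells. Both clusters counted as neurons by their score, and whether their cells are multiciliated was not tested.

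**Figure D3:**
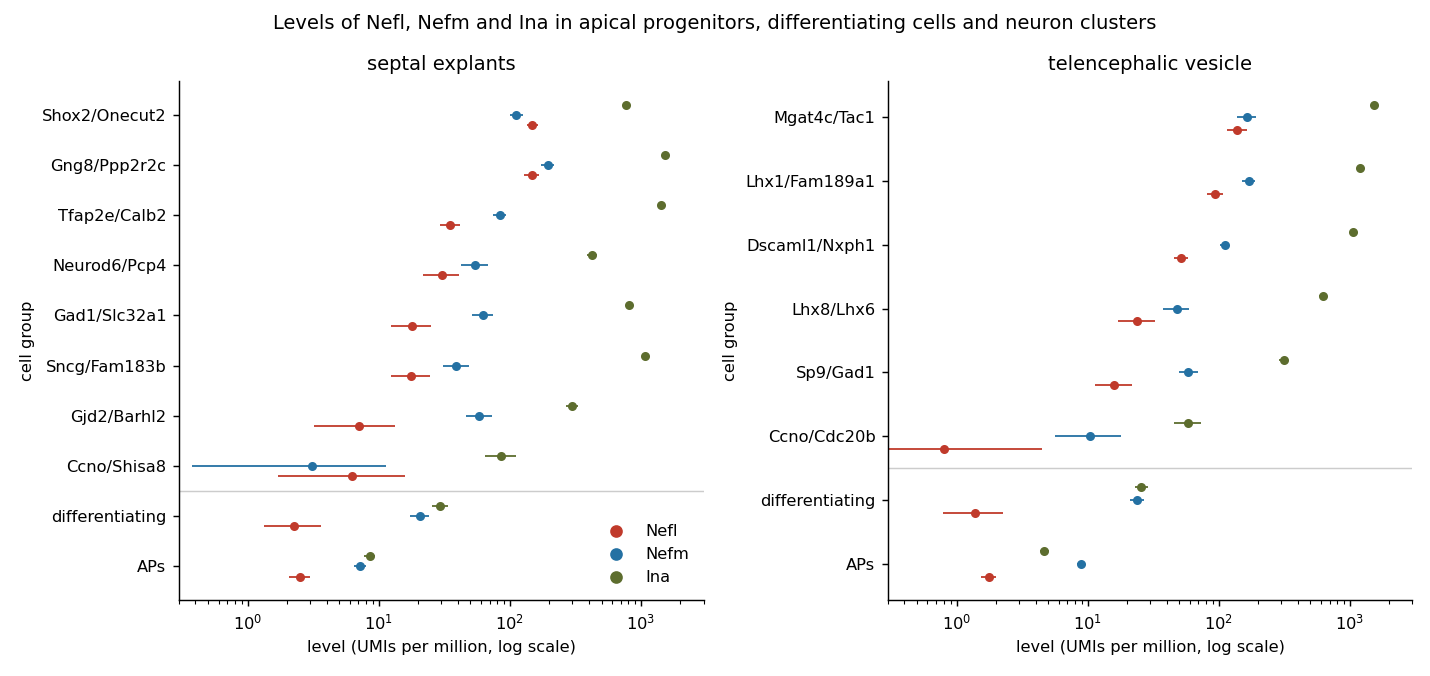
Levels of Nefl, Nefm and Ina (CPM, log scale) in each neuron cluster, named by leading genes and ordered by Nefl, and in differentiating cells and apical progenitors, with exact 95% Poisson intervals. Nefl spans 6.24 to 148 CPM over the septal neuron clusters and 0.808 to 138 CPM over those of the vesicle, and in differentiating cells Nefm lies near Ina while Nefl does not.

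The clusters highest in Nefl in each library were set against all other neurons. They were picked by their Nefl level, so a Nefl ratio past 2-fold there follows in part from the choice. The counts of members beside the shares over all genes are therefore description only. The Shox2/Onecut2 cluster had 3.84 times as much Nefl (3.36 to 4.398), with Nefm at 1.45 and Ina at 0.777. Of its members with 50 UMIs, 2 of 4 reached 2-fold (Nefl, and Prph through 1 cell), against 3.95% of 10437 genes. The Gng8/Ppp2r2c cluster had 3.03 times as much Nefl (2.60 to 3.54) and 2.74 times as much Nefm (2.40 to 3.13), so 2 of 4 members reached 2-fold against 2.37% of genes. In the Mgat4c/Tac1 cluster 1 of 3 members, Nefl at 3.26 (2.65 to 3.98), reached 2-fold against 4.9% of 11380 genes. In the Lhx1/Fam189a1 cluster 2 of 3 did, Nefl at 2.29 (1.92 to 2.72) and Nefm at 2.03 (1.78 to 2.30), against 3.1%. These cluster ratios were not stable. In 5 other settings of filters and clustering the Nefl ratio of the cluster matched to Shox2/Onecut2 fell to between 0.101 and 0.721, and that of the cluster matched to Gng8/Ppp2r2c rose to between 11.02 and 14.1. The Lhx1/Fam189a1 ratio fell to 0.953 with doublets kept and to 0.532 with cell cycle genes kept, and that of Mgat4c/Tac1 to 0.936 with doublets kept. In the vesicle the matched clusters were partly other cells. The one matched to Mgat4c/Tac1 with doublets kept held 454 cells, the original 83 among them. Those matched to Lhx1/Fam189a1 held 151 and 96 of its 230 cells. Clusters matched to Shox2/Onecut2 held only cells from its 276 in some settings. They had 203 cells at resolution 0.8, 243 with another seed and 217 with cell cycle genes kept. As their Nefl ratios still fell below 1, most Nefl UMIs of Shox2/Onecut2 lay in cells that left it there. Without the 10 cells with most Nefl UMIs in each cluster the ratios were 1.62, 2.13, 1.59 and 1.55 in the order Shox2/Onecut2, Gng8/Ppp2r2c, Mgat4c/Tac1 and Lhx1/Fam189a1. The Nefl-rich neurons were therefore also described as cells, without clusters.

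Nefl transcripts were held by few neurons. Among septal neurons 36 of 1263 (2.85%) held 50% of the 876 Nefl UMIs, the richest with 45 and 38. For Nefm 93 neurons (7.36%) held 50% of 1244 UMIs, and for Ina 206 (16.3%) held 50% of 14058. In the vesicle the numbers were 76 of 1675 neurons (4.54%) for Nefl, 122 (7.28%) for Nefm and 263 (15.7%) for Ina. The order of the genes was the same in both libraries, although a gene with fewer UMIs is spread over fewer cells by counting alone. The ratio of variance to mean of the UMIs per cell, 1 for counting error at equal depth, was 10.5 for Nefl, 5.48 for Nefm and 14.4 for Ina in septal neurons, and 3.26, 3.499 and 10.1 in the vesicle. Above 1 this ratio also depends on the mean, so it does not rank the genes by unevenness. The means were 0.694, 0.985 and 11.1 UMIs per septal neuron for Nefl, Nefm and Ina, and 0.385, 0.757 and 6.48 in the vesicle. The septal Nefl value rested mostly on the Shox2/Onecut2 cluster, where it was 18.1 and 7 of 276 cells held 50% of the UMIs. In the Gng8/Ppp2r2c cluster it was 3.56, and 16 of 114 cells held 50%. In the vesicle Dscaml1/Nxph1 cluster it was 1.46.

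**Figure D4:**
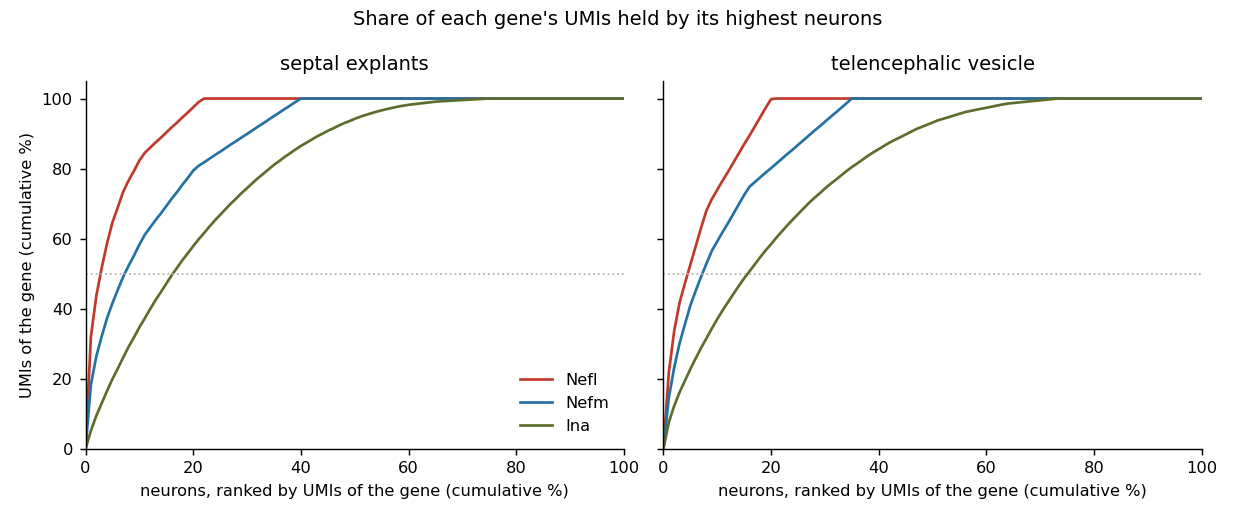
Cumulative percentage of the UMIs of Nefl, Nefm and Ina held by neurons ranked from the richest, against the cumulative percentage of neurons; the dotted line marks 50%. The Nefl curve crosses it at 2.85% of septal neurons, Nefm at 7.36% and Ina at 16.3%, and in the vesicle the crossings are at 4.54%, 7.28% and 15.7%.

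Cells with at least 5 Nefl UMIs, a limit set after the data were seen, were all neurons: 48 of 1263 septal neurons (3.80%) and 0 of 4121 other septal cells, and 26 of 1675 vesicle neurons (1.55%) and 0 of 10032 other cells. They held 57.3% of the Nefl UMIs of septal neurons and 28.7% of those of vesicle neurons. Of the septal cells 26 lay in Shox2/Onecut2, 14 in Gng8/Ppp2r2c, 5 in Tfap2e/Calb2 and 1 each in Gad1/Slc32a1, Sncg/Fam183b and Neurod6/Pcp4. In the vesicle 13 lay in Lhx1/Fam189a1, 7 in Mgat4c/Tac1, 3 in Lhx8/Lhx6, 2 in Dscaml1/Nxph1 and 1 in Sp9/Gad1. They were thus spread over 6 of 8 septal clusters and 5 of 6 vesicle clusters.

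Nefl-rich neurons also held more of the other chains. Nefm had a UMI in 46 of the 48 septal cells and a level of 503 CPM, against 62.9 CPM in the other neurons, and in 24 of the 26 vesicle cells, at 463 against 85.2 CPM. Ina had a UMI in all 48 and all 26, at 2046 against 887 CPM and 1507 against 802 CPM. Nefh, rare elsewhere, had a UMI in 7 of the 48 (14.6%) and in 13 of the other 1215 septal neurons, but in none of the 26 vesicle cells. The cells were also deeper, with medians of 13344.5 against 10988 UMIs and 9346 against 6841, and further along the differentiation score, with medians of 6.02 against 5.15 and 5.96 against 5.07.

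Onecut2 and Isl1 had a UMI in more of these cells than of other neurons. These transcription factor genes stood in the marker lists, and were picked out from them after the values were seen. Onecut2 had a UMI in 42 of the 48 septal cells (87.5%) against 31.4% of other neurons, and in 24 of the 26 vesicle cells (92.3%) against 25.7%. Isl1, a LIM homeodomain factor of striatal, motor and sensory neurons, had one in 28 of 48 (58.3%) against 25.8% and in 18 of 26 (69.2%) against 24.8%. Slc17a6, the vesicular glutamate transporter VGLUT2, had one in 35 of 48 (72.9%) against 45.8% and in 16 of 26 (61.5%) against 47.8%. Eomes, a BP gene, was less frequent, at 18.8% against 53.5% and 15.4% against 34.3%, and so was Neurod1, in 24 of 48 against 68.7% and 15.4% against 40.4%. The lists that hold Onecut2, Isl1 and Slc17a6 did not move as a whole. Of the 7 pallial glutamatergic markers, Slc17a6 alone was more frequent in the septal Nefl-rich cells and 6 were less frequent, among them Neurod2 (10.4% against 42.2%), Neurod6 (10.4% against 28.6%), Bhlhe22 (6 of 48 cells against 29.9%) and Tbr1 (47.9% against 67.9%). In the vesicle 3 of the 7 were more frequent. Of the 7 septal glutamatergic markers, which include Onecut2 and Slc17a6, 5 were more frequent in the septal cells and 4 in the vesicle ones, and Ebf2 (6 of 48 septal cells against 46.3%) and Lhx9 (47.9% against 70.0%) were less frequent. Of the 6 LGE-type GABAergic markers, which include Isl1, 2 were more frequent in the septal cells and 5 in the vesicle ones, with septal Meis2 at 37.5% against 45.8% and Zfp503 at 2.08% against 12.2%. Of the 7 GABAergic markers, 0 were more frequent in the septal cells and 4 in the vesicle ones (Dlx1, Dlx2, Gad2 and Slc32a1). Vesicle Gad2 had a UMI in 46.2% against 39.0%, and Slc32a1, the vesicular GABA transporter, in 30.8% against 23.8%. Slc17a6 thus did not set the vesicle cells apart from GABAergic ones. None of these shares was matched for depth, which was higher in the Nefl-rich cells.

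Markers of peripheral neurons were partly present. Of 7 such markers, 5 were at 0 in the 48 septal cells (Pou4f1, Isl2, Avil, Phox2a and Tlx3), and the summed level of the 7 was 65.1 CPM against 18.1 CPM in other neurons, from Ret and Sncg. Ret, a receptor for GDNF family ligands, had a UMI in 12 of 48 cells (25.0%) against 0.412%. In the 26 vesicle cells 4 of 7 were at 0 (Isl2, Phox2a, Tlx3 and Sncg) and the summed level was 73.6 against 20.7 CPM, from Pou4f1 (28.9 against 2.81 CPM) and Ret (28.9 against 0.780 CPM), each in 3 cells, while Avil had 15.8 against 14.2 CPM. The part of other cell types in the Nefl-rich cells was not tested.

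Split by Isl1 and Onecut2 alone, neurons ordered the same way in both libraries for Nefl. This split was added after the data were seen, and follows from the observation above on the same cells. Both genes were picked in cells chosen by their Nefl UMIs. A wider contrast for Nefl than for Nefm or Ina thus follows in part from the choice, and is description only. The ratios were not computed without the richest cells. Septal Nefl had 187 CPM in the 204 neurons with a UMI of both genes (170 to 205), 83.7 CPM in the 219 with Onecut2 only (73.1 to 95.5), 23.7 CPM in the 703 with neither (20.5 to 27.2) and 9.41 CPM in the 137 with Isl1 only (5.14 to 15.8). In the vesicle the levels were 128 CPM (112 to 146, 195 cells), 61.3 CPM (252 cells), 33.2 CPM (29.1 to 37.6, 996 cells) and 17.4 CPM (11.8 to 24.9, 232 cells). Nefl was thus higher with Onecut2 than with neither gene, and lower with Isl1 alone, over all neurons. Of the neurons with Isl1 only, 100 of 137 lay in Gad1/Slc32a1 and 184 of 232 in Sp9/Gad1, clusters low in Nefl. Within Sp9/Gad1 Nefl had 10.1 CPM with Isl1 only (5.40 to 17.3) and 4.199 CPM with neither (0.508 to 15.2), the other way, with overlapping intervals. In Mgat4c/Tac1 the 28 cells with Isl1 only had 51.6 CPM (28.2 to 86.6). They held 14 of the 30 Nefl UMIs of vesicle neurons with Isl1 only. In Shox2/Onecut2 the 20 cells with Isl1 only held 0 Nefl UMIs. The low level with Isl1 alone thus did not hold in every cluster. The ratio of both to neither was 7.88 for Nefl in the septal explants (6.65 to 9.36), against 2.55 for Nefm (2.22 to 2.92) and 1.41 for Ina (1.35 to 1.47). In the vesicle it was 3.87 (3.22 to 4.65), against 1.997 (1.73 to 2.30) and 1.54 (1.46 to 1.62).

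**Figure D5:**
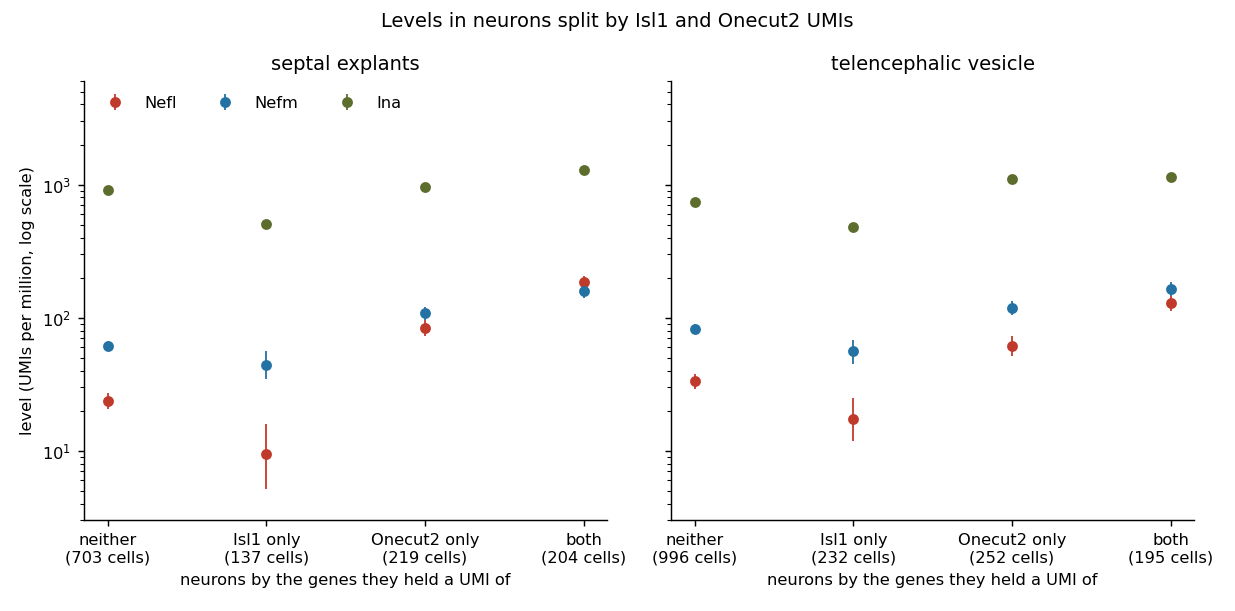
Levels of Nefl, Nefm and Ina (CPM, log scale) in neurons grouped by whether they held a UMI of Isl1, of Onecut2, of both or of neither, with exact 95% Poisson intervals and cell numbers under each group. Nefl spans 9.41 to 187 CPM over the septal groups and 17.4 to 128 CPM over those of the vesicle, a wider span than Nefm or Ina. The split genes were picked in Nefl-rich cells, so the wider span follows in part from that choice.

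Depth and stage stood beside these groups as follows. Septal neurons with both genes had a median of 10251 UMIs and those with neither 11419, with medians of 5.14 and 5.31 on the differentiation score. In the vesicle the medians were 7798 and 6641.5 UMIs, and 5.07 and 5.13. Neurons with Isl1 only were earlier, with medians of 4.78 and 4.11. Within each of the 4 clusters with at least 20 cells of both kinds, Nefl was higher with both genes than with neither. This was computed in the main clustering only, and the cells grouped in Shox2/Onecut2 and Lhx1/Fam189a1 changed with the clustering settings. In Shox2/Onecut2 Nefl had 302 CPM with both genes and 5.16 CPM with neither (1.06 to 15.1, 3 UMIs), in Lhx1/Fam189a1 281 and 41.8 CPM, in Lhx8/Lhx6 96.7 and 4.99 CPM (5 UMIs), and in Sp9/Gad1 38.5 and 4.199 CPM (0.508 to 15.2, 2 UMIs). In 3 of the 4 the cells with both genes were also further along the score, with medians of 4.98 against 4.10 in Shox2/Onecut2, 5.32 against 4.65 in Lhx8/Lhx6 and 4.35 against 3.52 in Sp9/Gad1, but 5.35 against 5.48 in Lhx1/Fam189a1. The cells with both genes were deeper in Lhx8/Lhx6, at medians of 7983.5 against 5812 UMIs. They were also deeper in Sp9/Gad1 (7057 against 6122) and Lhx1/Fam189a1 (7342.5 against 6660), but not in Shox2/Onecut2 (9170.5 against 9769). Ina differed too, by 27.7-fold in Shox2/Onecut2, 3.26-fold in Lhx8/Lhx6, 3.13-fold in Sp9/Gad1 and 1.38-fold in Lhx1/Fam189a1. In the Gad1/Slc32a1 cluster Nefl had 29.1 CPM with both (18.2 to 44.0) and 10.2 CPM with Isl1 only (5.11 to 18.3). In the Gng8/Ppp2r2c cluster it had 198 CPM with Onecut2 only and 68.1 CPM with neither, but in Dscaml1/Nxph1 57.3 CPM and 50.5 CPM, with overlapping intervals.

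Nefl also varied with the differentiation score inside clusters. Neurons were cut at the same score values into 3 groups of equal size. From the earliest to the latest group, Nefl in Shox2/Onecut2 had 9.87, 193 and 477 CPM, and Ina 344, 958 and 1652 CPM. In Tfap2e/Calb2 Nefl had 19.4, 25.3 and 43.0 CPM with overlapping intervals, while Ina had 768, 1139 and 1675 CPM. In Lhx1/Fam189a1 Nefl had 52.7, 51.0 and 146 CPM. In this clustering, late neurons of the same score group differed in Nefl by cluster. It ran from 7.29 CPM in Gjd2/Barhl2 (1.503 to 21.3, 41 cells) to 477 CPM in Shox2/Onecut2 (417 to 542, 45 cells), while Nefm in these clusters had 68.0 and 323 CPM. The 10 richest cells of Shox2/Onecut2 held 60.1% of its Nefl UMIs, and the cells grouped in it changed with the clustering settings, as given above. In Mgat4c/Tac1 Nefl went the other way, from 237 CPM (184 to 301, 26 cells) in the middle group to 85.6 CPM (61.7 to 116, 49 cells) in the latest.

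The balance among the chains shifted with these groups. Of all UMIs of Ina, Nefl, Nefm and Nefh in neurons, Ina gave 86.8% in the septal explants and 84.9% in the vesicle, Nefm 7.68% and 9.92%, Nefl 5.41% and 5.05%, and Nefh 0.123% and 0.0939%. These are shares of transcripts, not of protein. Nefl gave 11.4% of them in septal neurons with Isl1 and Onecut2 and 2.37% in those with neither, and 8.95% and 3.87% in the vesicle. These Nefl shares too follow in part from the way the split was chosen. Nefm gave 9.63% and 6.18% in the septal explants and 11.45% and 9.59% in the vesicle. By cluster the Ina share was highest in Sncg/Fam183b (94.9%, 93.9 to 95.8) and lowest in Shox2/Onecut2 (74.3%, 72.6 to 75.9), where Nefl reached 14.5%. The Shox2/Onecut2 share of Nefl was between 2.84% and 6.79% in the 5 settings named above. The Nefm share was highest in Gjd2/Barhl2 (16.1%, 12.9 to 19.8) and in the vesicle in Sp9/Gad1 (15.1%, 12.9 to 17.5).

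Nefl and Nefm were found together more often than their shares alone give. Both were held by 195 septal neurons, where independent detection gives 110.0, so the ratio was 1.77 (1.53 to 2.04). Computed within clusters it was 1.49, and within clusters and 10 groups of depth 1.33 (1.15 to 1.54). In the vesicle 212 neurons held both, with ratios of 1.80 (1.57 to 2.06), 1.46 and 1.30 (1.13 to 1.49). Counting only cells with at least 2 UMIs of each gene, the ratios over all neurons were 3.01 and 3.42. Nefl and Ina gave 1.23 and 1.30, and 1.10 (0.972 to 1.25) and 1.09 (0.973 to 1.22) within clusters and depth groups. Nefm and Ina gave 1.16 and 1.15, and 1.06 and 1.03. All of Ina, Nefm and Nefl were detected in 188 septal neurons (14.9%) and 209 vesicle neurons (12.48%). Ina was the sole one of these 3 in 439 (34.8%) and 621 (37.1%), and Nefl the sole one in 14 (1.11%) and 12 (0.716%). None was detected in 239 (18.9%) and 343 (20.5%), which had lower median depths (9584 and 6181 UMIs) than cells with all 3 (13260.5 and 8934 UMIs).

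Nefh, the heavy chain, which is known to build up late as axons mature, was near its detection limit. Septal neurons held 20 UMIs in 20 cells (1.58%), or 1.34 CPM, and APs 8 UMIs, a ratio of 8.04 (3.39 to 21.1). Vesicle neurons held 12 UMIs in 11 cells, with a ratio of 10.3 (4.22 to 25.0) to the 12 UMIs in APs. These totals lie below the minimum of 50 UMIs, so Nefh was left out of the counts above. Of the septal UMIs, 10 were in Shox2/Onecut2 (3.62% of its cells) and 8 in Gng8/Ppp2r2c (7.02%), the clusters highest in Nefl. In the vesicle 5 were in Mgat4c/Tac1 and 5 in Sp9/Gad1, and 0 in the 641 cells of Dscaml1/Nxph1, an interval up to 0.734 CPM.

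Prph rested on single cells. The septal library held 65 Prph UMIs in 28 cells. Neurons had 55 of them and APs 8, a ratio of 22.1 (10.5 to 53.7), but 36 were in 1 Shox2/Onecut2 neuron, and without it the ratio was 7.65. That neuron was among those with at least 5 Nefl UMIs. The Sncg/Fam183b cluster held 12 UMIs in 10 of 163 cells (6.09 CPM, 3.14 to 10.6), and 0 were seen in Gad1/Slc32a1 (interval up to 1.93 CPM), Gjd2/Barhl2 or Neurod6/Pcp4. The vesicle library held 11 UMIs in 8 cells, too few for a ratio. In the cells with a Prph UMI 6 of the 7 peripheral markers were at 0 in the septal library, with Sncg above 0, and 5 of 7 in the vesicle, with Pou4f1 and Avil above 0. Sncg also leads the Sncg/Fam183b cluster.

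The septal pool joins embryos of different stage and reporter. PGKCre is used to recombine in all cells, so that YFP marks E11.5 embryos. Neurons with at least 3 eYFP UMIs (671 cells) had 66.5 CPM of Nefl (61.0 to 72.3), 87.7 of Nefm and 985 of Ina. The 392 neurons with 0 eYFP UMIs, which can come from either stage, had 55.1 (48.4 to 62.5), 81.1 and 916 CPM. Within Shox2/Onecut2 Nefl had 211 CPM in cells with at least 3 eYFP UMIs (188 to 237) and 112 CPM in those with 0 (91.6 to 136), within Gng8/Ppp2r2c 163 and 121 CPM. In Tfap2e/Calb2 it had 32.0 (25.1 to 40.1) and 54.2 CPM (38.8 to 73.9), the other way. The 10 richest cells of Shox2/Onecut2 held 60.1% of its Nefl UMIs, so a few cells can set its contrast. The intervals do not cover this, and the contrast was not computed without those cells. The Neurod6/Pcp4 cluster had 3 or more eYFP UMIs in 1.98% of its cells, against 47.1 to 65.5% in the other 7. Stage and genotype cannot be told apart in this pool.

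The other intermediate filament genes that met the minimum did not reach this rise. Of 12 genes of this kind, 7 had 50 UMIs in the septal explants and 9 in the vesicle. None of these was 4-fold higher in neurons, beside 7.18% and 6.96% of all genes compared, so a count of 0 among so few genes is near that share. The 4-fold lower genes were 1 septal (Krt18) and 2 vesicle ones (Nes and Krt18), beside 6.85% and 7.91% of all genes compared. Below the minimum, septal Synm (12 UMIs in neurons and 5 in APs), septal Sync (4 and 0) and vesicle Des (4 and 5) had ratios over 4. The median ratio of those compared was 0.571 and 0.577, against 1.03 and 0.941 over all genes compared. Vim, vimentin, had ratios of 0.571 and 0.383, Nes, nestin, 0.253 and 0.227, and Krt18, a simple epithelial keratin, 0.189 and 0.194. Lmna, the A-type lamin, had 2.14 and 2.099, against 0.512 and 0.508 for the B-type lamin Lmnb1.

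Some genes that act with neurofilaments were 4-fold higher in neurons, and most were not. Of 8 linkers and motors 2 septal (Kif5a and Kif5c) and 1 vesicle gene (Kif5a) were, beside 7.18% and 6.96% of all genes compared, so the vesicle count is near the share over all genes. The medians were 1.69 and 1.31. Kif5a, a neuronal kinesin heavy chain known to carry neurofilaments along axons, had ratios of 14.7 and 14.9, whereas its ubiquitous relative Kif5b had 1.23 and 0.945. Plec, the linker plectin, had 0.758 and 0.483. Of 11 kinases, regulators and turnover genes 2 were 4-fold higher in both libraries, beside the same 7.18% and 6.96% of all genes compared. They were the Cdk5 activators Cdk5r1 (40.7 and 16.4) and Cdk5r2 (14.6 and 6.94), and the medians of the list were 1.87 and 1.51. Cdk5 itself, which phosphorylates neurofilament tails, had 2.08 and 2.24. Stub1, a ubiquitin ligase, had 0.821 and 0.813.

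Other neuronal cytoskeleton and axon genes gave a scale for the rise. Of 10, 7 septal and 6 vesicle genes were 4-fold higher, beside 7.18% and 6.96% of all genes compared, with medians of 8.61 and 8.46. Mapt, the microtubule protein tau, had the highest septal ratio of the list (47.3, and 33.4 in the vesicle), and Stmn2 the highest vesicle one (40.6, and 19.1 in the septal explants). Dpysl2 had the lowest in both (2.30 and 2.24). Ina at 110.0 and 176 lay above every gene of this list in both libraries, Nefl between Tubb3 (19.5) and Mapt in the septal explants, and Nefm near Gap43 (9.66 and 11.1). All 3 later neuronal genes were higher: Syt1 (23.2 and 10.6), Rbfox3 (17.1 and 6.48) and Snap25 (13.0 and 9.42). Tubb3, Stmn2 and Gap43 were among the genes that ordered the cells along the score.

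The genes whose levels over the neural clusters were most like those of a member are given as a description, over 25 septal or 22 vesicle clusters that share their library and differ in depth. For Ina they were Rufy3, Rab6a, Plppr3, Grb2 and Trappc4 in the septal explants (Pearson r from 0.980 to 0.973) and included Actl6b, Chgb, Rab3a and Tubb4a in the vesicle (0.987 to 0.979). For Nefm they were Snrpn, B4galt7, Ap1s2, Gprin1 and Stmn2 (0.912 to 0.876), and Cacna1b, Trim67, Paxx, Mast1 and Ndfip2 (0.943 or more). For Nefl they were Hcn3, Caly, Pcsk2, BC005537 and Sez6l2 (0.899 to 0.879), and Rps6kl1, Rph3a, B230334C09Rik, Gm16105 and Rusc1 (0.982 to 0.9497). No gene was on both lists of a member. Among themselves, Nefl and Nefm had r of 0.806 and 0.913, Nefl and Ina 0.876 and 0.917, and Nefm and Ina 0.805 and 0.923.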

How the data were processed

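Raw UMI counts per gene and barcode were used as deposited by the authors, who made them with Cell Ranger 2.1.1 (septal explants, kit version 2) or 7.1.0 (telencephalic vesicle, kit version 3.1) on mm10. Whether intronic reads were counted is not given in the sources used here, and levels were not compared between libraries. Barcodes over 3 median absolute deviations of mitochondrial share (383 septal, 1812 vesicle) and doublets found by Scrublet in scanpy 1.11.5 (60, 1.10%, and 764, 6.13%) were removed. Cells were clustered (Leiden, resolution 1.5, 30 components, 2000 variable genes) without the 5 genes, 12 other filament genes and cell cycle genes. Clusters of 371 septal cells stayed unnamed and 969 shallow vesicle cells stayed out. A cluster counted as neurons where its median score, log2 of neuronal over AP UMIs, was over 3.5. That limit was set after the data were seen, as were the cluster naming rule, the 5 Nefl UMIs and the Isl1 and Onecut2 split. So were the 3 score groups, the removal of top cells and the choice of the clusters highest in Nefl for comparison with other neurons. Intervals are exact (Poisson, Clopper-Pearson or, for ratios, binomial). Expected co-detection is the product of shares. The members, lists and comparisons were chosen with earlier results of these data known. Named are the 5 members, genes of the 5 lists (by count, with the largest and smallest ratios) and the 5 genes most like a member by Pearson r of log2(CPM + 1) in neural clusters, at 20 CPM or more in at least 1. Alternatives were the filters, the clustering, thinning, neurons as the top 2 bins, at least 2 UMIs, and no count minimum. Gene models are from GENCODE vM21, promoters from RefSeq; 2 of the 5 genes had a promoter entry. Some genes of the marker lists and of the genes most like a member are not reported here, and the peripheral markers were counted and summed without them.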

Additional observations from a re-analysis of the deposited data

How the results depend on the processing

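Of 359 alternative values for 48 results, 253 stayed within the interval of the value reported, 98 moved beyond it and 8 reversed. The places where genes passed 50% of their highest level have no interval, and counted as unmoved within the width of a bin of the 10. The cause was not tested. With neurons taken as the top 2 score bins, the ratio of neurons to APs was 136 (septal) and 219 (vesicle) for Ina and 15.1 for septal Nefm. The percentage of neurons with a UMI was 80.2% and 65.1% for Ina, 25.1% and 17.1% for Nefl and 44.6% and 32.4% for Nefm. The joint detection of Nefl and Ina in the vesicle was 1.46 and the Shox2/Onecut2 ratio for Nefl 6.22. With thinned cells the vesicle ratio was 198 for Ina and 9.38 for Nefm, the septal one 10.1 for Nefm, and the detected percentages 67.9% for vesicle Ina, 17.6% and 11.2% for Nefl and 33.1% and 22.3% for Nefm. With doublets kept the ratio was 97.9 and 119 for Ina, 21.2 for vesicle Nefl and 8.59 for vesicle Nefm, and septal Ina was detected in 70.1%. With all barcodes it was 95.6 and 117 for Ina, 21.5 for vesicle Nefl and 8.12 for vesicle Nefm. At Leiden resolution 2.5 it was 95.3 for septal Ina, 10.2 and 9.99 for Nefm, with Ina detected in 69.2% and 71.0%, and the septal Nefm ratio of subpallial-like to pallial-like and VP-like APs was 8.37. Another seed gave vesicle values of 199.6 for Ina and 11.97 for Nefm, and 81.1%, 22.8% and 37.5% for Ina, Nefl and Nefm. With cell cycle genes kept vesicle Ina was detected in 71.1%. Without the 10 richest cells the septal Nefl ratio was 17.02. At 2 or more UMIs the percentages were 65.2% and 63.8% for Ina, 10.6% and 8.24% for Nefl and 20.3% and 15.9% for Nefm, and joint detection was 3.01 and 3.42 for Nefl and Nefm, 1.51 for septal Nefl and Ina, and 1.40 and 1.39 for Nefm and Ina. Within clusters joint detection was 1.49 and 1.46 for Nefl and Nefm and 1.11 for vesicle Nefl and Ina, and with depth groups 1.33 and 1.30, 1.09, and 1.06 and 1.03 for Nefm and Ina. Without the minimum of 50 UMIs 12.6% and 12.4% of genes were higher in neurons and 14.8% and 21.3% lower.

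The Nefl ratios of single clusters depended most on the settings. For Shox2/Onecut2 it was 0.721 with doublets kept, 0.711 with all barcodes, 0.101 and 8.70 at resolutions 0.8 and 2.5, 0.329 with another seed, 0.183 with cell cycle genes kept and 1.62 without the 10 richest cells. In the same order Gng8/Ppp2r2c gave 11.7, 11.02, 13.0 (resolution 0.8), 13.3, 14.1 and 2.13. Lhx1/Fam189a1 gave 0.953 with doublets kept, 3.11 with all barcodes, 1.29 at resolution 2.5, 0.532 with cell cycle genes kept and 1.55 without the 10 cells. Mgat4c/Tac1 gave 0.936, 1.0007, 2.39 and 2.52 (resolutions 0.8 and 2.5), 1.19 (seed), 4.998 (cell cycle genes) and 1.59. The ratio of Nefl in neurons with Isl1 and Onecut2 to those with neither moved in the vesicle. It was 5.25 thinned, 2.80 with doublets kept, 2.75 with all barcodes and 3.18 with another seed. The septal ratio did not move beyond its interval in any setting run. Removal of the richest cells was not run for either ratio. Of the 439 Nefl UMIs of septal neurons with both genes, 384 lay in Shox2/Onecut2. The 10 richest cells of that cluster held 60.1% of its Nefl UMIs. The places at which Nefl, Nefm and Ina passed 50% of their highest level did not move by more than the width of a bin of the 10, so smaller shifts were not counted. Nefh and Prph rested on few UMIs, with 20 and 55 in septal neurons and 12 and 8 in vesicle neurons. The part of depth in these low counts was not tested. No paired analysis was possible because each group holds 1 library and no test was made.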
